A study of Homo sapiens with 9 samples.

Results

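Nascent DNA libraries taken as late S phase were compared between HCT116, a colorectal carcinoma line, and RPE1, a telomerase-immortalised line of retinal pigment epithelium. Growing cells were pulsed with EdU, a thymidine analogue that marks new DNA, sorted into 3 fractions of S phase, and the marked DNA was pulled down and sequenced. RPE1 was done in 2 sets and HCT116 in 1, each with an early, a mid and a late S library, and no treatment or genotype differed between them beyond the line. The labels do not state if the RPE1 sets are separate cultures, and for HCT116 they give replicate number 2 to the mid and late libraries and no number to the early one. The libraries studied were the last of the 3 count columns in each table, 3 of 9 libraries in all. They are called library C here, and the first and second columns are called A and B. These letters stand for columns and not for bases. The tables have no column names. Library C is late S only if the columns follow the order in which the samples are listed, early, mid and late. That order is an inference which no label records, so results are given by letter and not by fraction. Reads were summed to windows of 50 kb on the 22 autosomes, each library was scaled to a common total, and the C share is the percent of the 3 scaled libraries of a set that lay in C. Of 57633 windows 53706 were kept, and the other 3927 had too few reads.

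Replication timing is organised in domains. Long stretches of DNA hold many origins that fire within a common part of S phase, and transition regions separate them from earlier or later neighbours. Late domains are generally gene-poor, rich in A and T bases, and packed as heterochromatin at the nuclear lamina, while gene-dense chromosomes are copied early. A part of the domains is known to change timing between cell types. No genome or gene annotation of hg19, the build of the tables, was used here, so domains are given by position and no gene is named.

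The C share separated the genome into a low and a high class in every set. In RPE1 set 1 the median window had a C share of 24.1% and the middle 50% of windows ran from 5.21 to 59.6%. RPE1 set 2 had a median of 27.3% with a middle range of 18.3 to 51.1%. HCT116 had 22.1%, with 17.0 to 50.6%. The sets differed in how empty the low class was, since the lowest 5% of windows had C shares of up to 3.06 and 14.3% in RPE1 sets 1 and 2 and 13.6% in HCT116. The top 5% began at 71.2, 63.1 and 64.3%. Since a fixed threshold does not mean the same in all sets, counts of domains are also given with a threshold by rank, the top 25% of windows of each set. For HCT116, library C had 6639310 reads, fewer than the 15854234 and 16472082 of RPE1 sets 1 and 2. A window at the median depth of HCT116, 450 reads over its libraries, would place a share of 50% between 45.3 and 54.7% (95% exact binomial interval, counting error only). The same interval ran from 46.0 to 54.2% for 591 reads in RPE1 set 1 and from 46.6 to 53.3% for 885 reads in RPE1 set 2. These intervals take unscaled reads. The C share uses libraries scaled from unequal totals, so they are only a rough guide to its error.

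**Figure D1:**
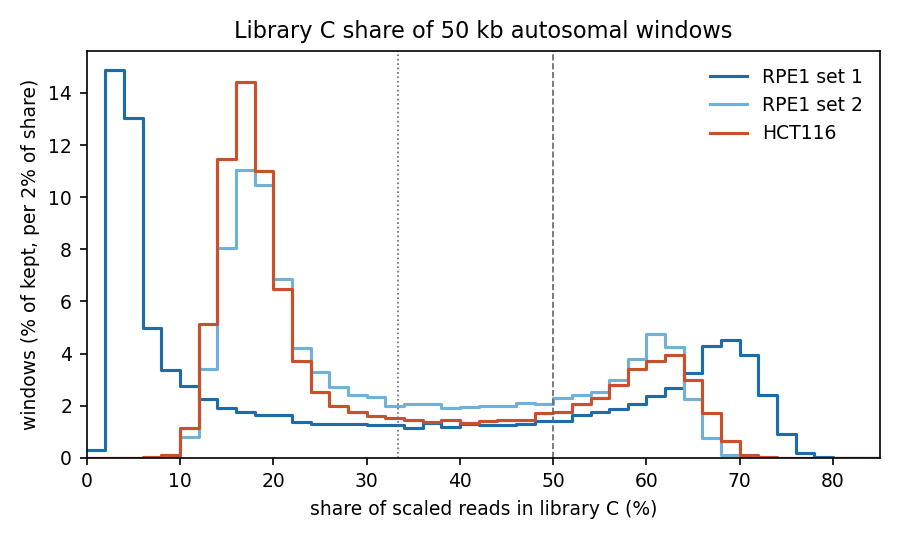
Percent of kept 50 kb windows (y axis) by C share (x axis, in steps of 2%) for each set. The dotted line marks an even share of 33.3% and the dashed line 50%. Every set has a low and a high peak, and the low peak of RPE1 set 1 lies nearer to 0 than those of RPE1 set 2 and HCT116.

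A window was called C-rich at a C share of 50% or more. RPE1 set 1 had 17947 such windows (33.4% of those kept), RPE1 set 2 had 14074 (26.2%) and HCT116 had 13675 (25.5%). The threshold cut through a continuous range. There were 769, 1239 and 935 windows from 50 to 52% in RPE1 set 1, RPE1 set 2 and HCT116, and 764, 1113 and 924 from 48 to 50%. RPE1 was taken as C-rich where both of its sets were, which gave 13980 windows. Nearly all C-rich windows of RPE1 set 2, 99.3%, were also C-rich in set 1, while 77.9% of those of set 1 were so in set 2.

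C-rich windows lay in long runs. A run of at least 5 adjacent windows, 250 kb, is called a C domain, and such runs held 94.9, 93.1 and 93.8% of the C-rich windows of RPE1 set 1, RPE1 set 2 and HCT116. RPE1 set 1 had 773 C domains with a median length of 700 kb, RPE1 set 2 had 620 with 650 kb, and HCT116 had 444 with 950 kb. HCT116 thus had fewer and longer C domains than either RPE1 set. With the top 25% of windows of each set taken as C-rich there were 618, 588 and 447 domains. At a threshold of 60% the order changed, with 608 and 412 domains in RPE1 sets 1 and 2 and 471 in HCT116. Domains of at least 1 Mb held 81.2% of the domain length of HCT116, against 71.8 and 68.8% in the RPE1 sets, and HCT116 had 19 domains of at least 5 Mb against 9 in each RPE1 set. The longest C domain of RPE1 was on chromosome 5, from 21500001 to 30000000 in set 1 and from 21550001 to 30000000 in set 2 (hg19, as are all positions). The longest of HCT116 was on chromosome 13, from 61300001 to 72950000, a length of 11.65 Mb. RPE1 had C shares of 62.1 and 51.99% there, and HCT116 had 60.1%. In both RPE1 sets at once 62.7% of its length was C-rich, in parts of 4 separate RPE1 domains.

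Most C-rich DNA was common to the lines. All 3 sets were C-rich in 9714 windows, or 18.1% of those kept. These made up 69.5% of the C-rich windows of RPE1 and 71.0% of those of HCT116. Of the other RPE1 windows, 2545 (18.2%) had an HCT116 share between 33.3%, an even share, and 50%, and 1721 (12.3%) were at or below an even share in HCT116. Of the C-rich HCT116 windows, 1518 (11.1%) were C-rich in 1 RPE1 set, 1362 (9.96%) lay between in at least 1 RPE1 set without being C-rich in either, and 1081 (7.90%) were at or below an even share in both RPE1 sets. The last class of each line, C-rich in 1 line and at or below an even share in the other, is called found in 1 line. RPE1-only windows were 3.2% and HCT116-only windows 2.01% of those kept. The RPE1 sets set against each other by the same thresholds gave 5 windows C-rich in set 1 and at or below even in set 2 (0.00931%), 0 the other way, and 0 domains. Window by window, the C share had a Pearson correlation of 0.977 between the RPE1 sets, and of 0.764 and 0.766 between HCT116 and RPE1 sets 1 and 2. These describe 53706 windows that share neighbours and libraries, and carry no p-value.

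**Figure D2:**
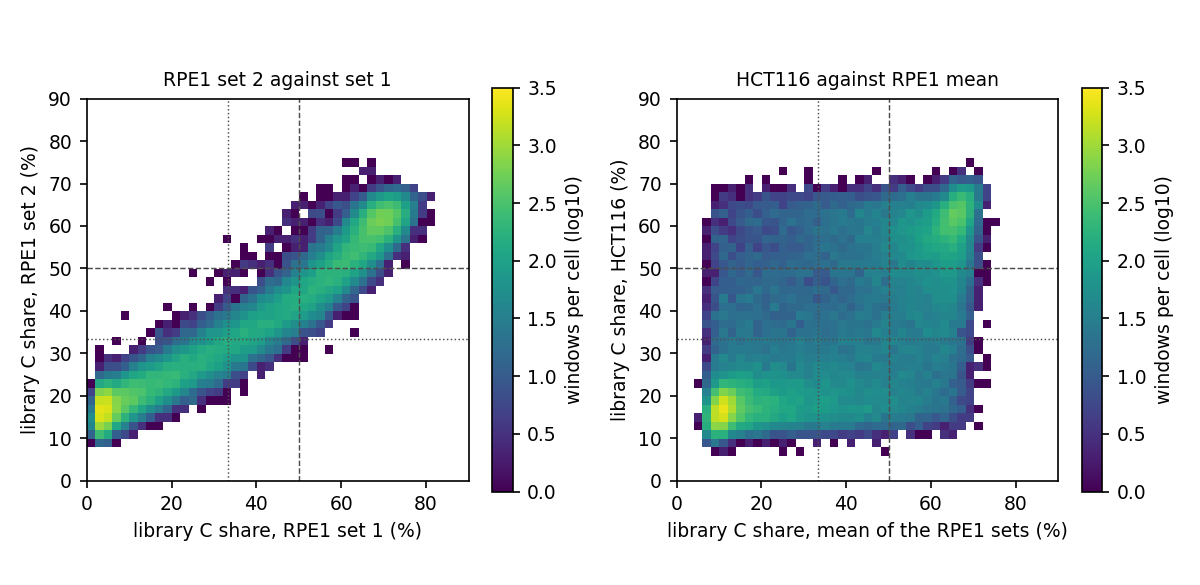
C share of each 50 kb window in RPE1 set 2 against set 1 (left) and in HCT116 against the mean of the RPE1 sets (right), in cells of 2% by 2%, with colour giving the number of windows on a log10 scale. Dotted lines mark 33.3% and dashed lines 50%. The RPE1 sets follow a narrow curve, and the right panel has its largest masses in the low and the high corner with windows spread over the rest.

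The shared C domains numbered 429, covered 442.75 Mb and had a median length of 650 kb. The longest lay on chromosome 5 from 22000001 to 30000000, 8.0 Mb in length, with a C share of 61.9% in HCT116, and of 67.6 and 61.4% in RPE1 sets 1 and 2. Its lowest windows had 50.8% in HCT116 and 56.8 and 51.7% in RPE1. A domain of 7.2 Mb on chromosome 21, from 19350001 to 26550000, had 68.2, 58.2 and 62.2%. On chromosome 2, from 76300001 to 82950000, the shares were 69.2, 61.6 and 61.8%, and this stretch was a whole C domain of RPE1. A stretch of chromosome 13 from 53600001 to 60000000 had 69.0, 61.4 and 62.5%, and a stretch of chromosome 10 from 54700001 to 59600000 had 68.6, 61.8 and 63.2%. In these 5 domains HCT116 lay between the RPE1 sets, above set 2 and below set 1, and its difference from the RPE1 mean was at most 3.62 points, against SDs of 4.37 to 7.10 between the RPE1 sets (n = 2). Over all shared domains the HCT116 share ran from 51.2 to 65.7%. Its difference from the RPE1 mean had a median size of 3.62 points and a largest size of 14.9 points. Every window of a shared domain was chosen as C-rich in every set, which limits how far the sets could differ there. The small differences follow in part from that choice and are no test of agreement. In the 5 named domains set 1 lay above set 2 each time, so the SD between the sets includes a shift in the same direction.

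The C domains found in RPE1 only numbered 114, covered 46.4 Mb and had a median length of 350 kb, and 2 of them reached 1 Mb. Their number depended on RPE1 set 2, since 247 were found without it and 119 without set 1. With the top 25% of windows of each set there were 80, covering 30.9 Mb, and at a threshold of 60% there were 13. Both settings change only the C-rich side and still hold the other line to the fixed even share. Of the kept windows, 62.4% in HCT116 and 56.0 and 57.0% in RPE1 sets 1 and 2 were at or below it. The longest lay on chromosome 4 from 29950001 to 31650000, 1.7 Mb in length. Its C share was 69.0 and 62.3% in RPE1 sets 1 and 2, and 19.7% in HCT116. Every window of it was at or above 62.5 and 58.2% in the RPE1 sets and at or below 31.4% in HCT116. It was the middle of a C domain of RPE1 of 6.6 Mb, from 27150001 to 33750000, of which 55.3% was also C-rich in HCT116, in 2 separate domains. On chromosome 6, from 54100001 to 55100000, the shares were 68.1 and 59.0% in RPE1 and 25.7% in HCT116. On chromosome 7, from 143700001 to 144600000, they were 62.1 and 55.0% against 19.0%. A stretch of chromosome 8 from 126950001 to 127800000 had 66.3 and 58.3% against 15.7%, the largest difference among RPE1-only domains at -46.65 points. The HCT116 reads of that stretch were 1.29 times the autosomal median after scaling, against 1.16 and 0.958 times in the RPE1 sets. A stretch of chromosome 12 from 4950001 to 5800000 had 70.8 and 59.6% against 22.8%. Both of the latter were C domains of RPE1 in full, with no C-rich window of HCT116 within 250 kb.

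Over all 114 RPE1-only domains the C share was 55.3 to 73.4% in RPE1 set 1 and 51.5 to 64.5% in RPE1 set 2, against 15.7 to 31.7% in HCT116. The SD between the RPE1 sets had a median of 5.82 and a maximum of 10.7 points, and the difference from HCT116 was at least 26.5 points in size. These ranges follow from the thresholds and are no test. In 71 of the 114 domains the surrounding RPE1 domain held no C-rich window shared with HCT116, and in 43 it held some. No C-rich window of HCT116 lay within 250 kb of 87 of them. A single domain of this class had very few HCT116 reads. On chromosome 16 from 6500001 to 6900000 HCT116 had 354 reads against 6823 and 6552 in RPE1, at 0.0824 times the autosomal median, and 57 of these reads were in library C.

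The C domains found in HCT116 only numbered 79 and covered 34.0 Mb, again with a median length of 350 kb and 2 domains of 1 Mb or more. With the top 25% of windows of each set there were 78, covering 32.65 Mb, and at a threshold of 60% there were 27. HCT116 thus had fewer domains of its own than RPE1 at the 50% threshold and more at 60%. With only the C-rich side set by rank it had nearly as many, with a larger summed length. The longest lay on chromosome 1 from 239900001 to 241050000, with a C share of 59.4% in HCT116, and of 8.92 and 19.8% in RPE1 sets 1 and 2. Every window of it was at or below 31.5 and 32.0% in the RPE1 sets and at or above 50.1% in HCT116. It lay in an HCT116 domain of 4.2 Mb, from 237250001 to 241450000, of which 42.9% was C-rich in RPE1, in 3 domains. On chromosome 7, from 41450001 to 42450000, the shares were 9.13 and 17.4% in RPE1 and 58.2% in HCT116. Chromosome 3 had 2 such stretches. From 54850001 to 55800000 the shares were 12.9 and 21.3% against 64.6%, and from 63800001 to 64600000 they were 9.56 and 17.3% against 56.9%. A stretch of chromosome 18 from 25150001 to 25950000 had 14.2 and 21.5% against 62.9%. The HCT116 domain around it ran from 24600001 to 26700000. All 5 stretches lay inside HCT116 domains that also held shared windows.

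Over the 79 domains the C share was 52.2 to 65.2% in HCT116, 5.64 to 27.2% in RPE1 set 1 and 16.5 to 29.8% in RPE1 set 2. The surrounding HCT116 domain held shared C-rich windows in 48 of them and none in 31, and its median length was 1250 kb, against 750 kb for the RPE1 domains around RPE1-only stretches. Scaled reads were uneven here. The median HCT116-only domain had 1.06 times the autosomal median in HCT116, and 0.740 and 0.957 times in RPE1 sets 1 and 2. HCT116 exceeded the RPE1 mean by more than 1.2 times in 60 of the 79 domains, and in 61.0% of HCT116-only windows, against 8.51% of all kept windows and 4.36% of RPE1-only windows. The part of read depth in these calls was not tested.

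**Figure D3:**
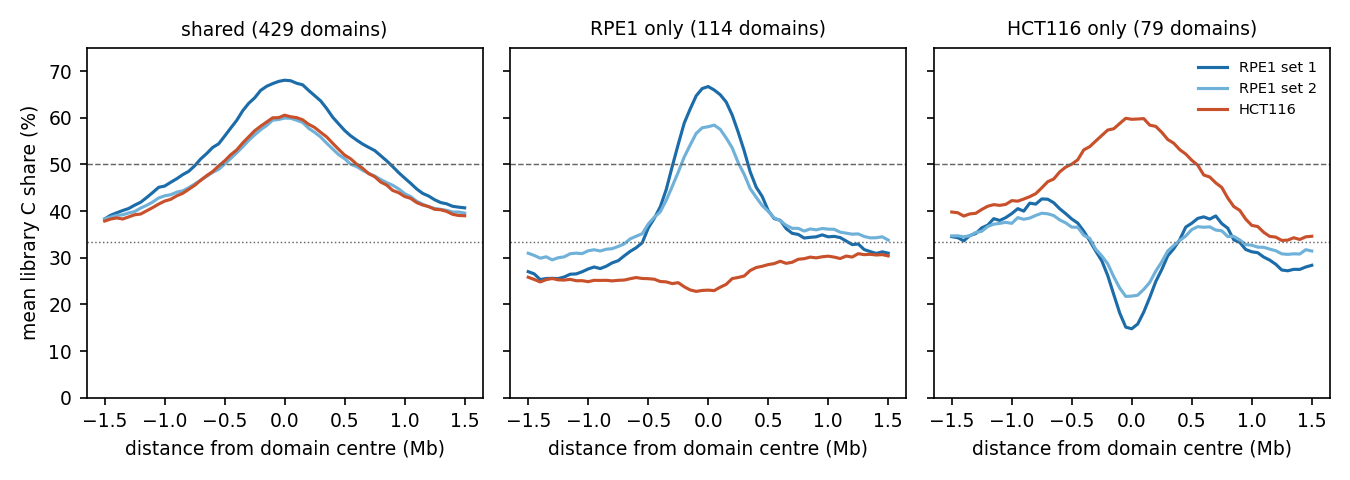
Mean C share (y axis, percent) by distance from the domain centre (x axis, Mb) for shared domains (left, 429), RPE1-only domains (middle, 114) and HCT116-only domains (right, 79), with 1 line for each set. At the centre the means are 68.1, 59.9 and 60.6% in shared domains, 66.7, 58.1 and 23.1% in RPE1-only domains and 14.8, 21.8 and 59.7% in HCT116-only domains for RPE1 set 1, RPE1 set 2 and HCT116. The centre values follow from how domains were chosen.

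The thresholds did not fix which of the other libraries took the reads that C did not hold, so this was measured next. In the line without the domain, library B led. In the RPE1-only domains the median shares in HCT116 were 27.4% in A, 48.1% in B and 23.4% in C. Library B had the most scaled reads in 106 of the 114 domains and library A in the other 8. In the HCT116-only domains the medians in RPE1 set 1 were 28.1, 52.7 and 19.5%, and in RPE1 set 2 they were 27.1, 48.8 and 24.0%. Library B led in 75 of 79 domains in set 1 and in 73 in set 2. Among the longest domains some did not follow this. The chromosome 4 stretch had 45.3% in A and 35.0% in B in HCT116, and the chromosome 7 stretch found in RPE1 had 43.1 and 37.9%. The RPE1 sets differed in the chromosome 1 stretch. Library B led in set 1, with 44.3% in A and 46.8% in B, and library A led in set 2, with 42.8 and 37.3%.

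Other windows at or below an even share give the background for this. Of all HCT116 windows at or below an even share, B exceeded A in 46.1%, and of those with a C share from 20% to even in 76.0%. Of the RPE1-only windows it was 91.9%. In RPE1 set 1 the corresponding values were 49.6% of all windows at or below even, 95.9% of those from 20% to even and 92.7% of HCT116-only windows, whose median C share was 19.7%. In RPE1 set 2 they were 43.2, 72.7 and 90.3%. The band from 20% to even had a median C share of 24.3% in RPE1 set 2, near the 24.2% of the HCT116-only windows, and 23.6% in HCT116, near the 24.4% of the RPE1-only windows. In RPE1 set 1 it had 26.3%, above that of the HCT116-only windows, of which over 50% lay below the band, so it is no background of similar C share there. Adjacent windows are not independent, and no test was made.

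Longer RPE1 domains were shared with HCT116 over more of their length, and HCT116 domains showed this less. RPE1 domains of 250 to under 500 kb were C-rich in HCT116 over 47.2% of their length (203 domains), those of 500 to under 1000 kb over 57.7% (198), those of 1000 to under 2000 kb over 68.3% (132), and those of 2 Mb or more over 86.7% (85). HCT116 domains of the same classes were C-rich in both RPE1 sets over 62.4% (112 domains), 68.5% (118), 68.2% (123) and 76.3% (91). These values are of summed length. The median HCT116 domain was covered over 87.5, 88.5, 81.25 and 87.0%, with no rise by length. The median RPE1 domain was covered in HCT116 over 40, 70, 73.2 and 90.9%. The RPE1 sets were also taken singly. Domains of set 1 were C-rich in HCT116 over 28.8, 44.6, 62.8 and 81.6% of their length, from the shortest class to the longest, and in set 2 over 43.3, 70.1, 84.0 and 92.7%. Domains of set 2 were C-rich in HCT116 over 46.1, 57.7, 67.9 and 86.2%, and in set 1 over 98.7, 99.7, 99.8 and 99.9%, with hardly any change by length. In each length class the domains of an RPE1 set were thus covered less in HCT116 than in the other RPE1 set, and no test was made.

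**Figure D4:**
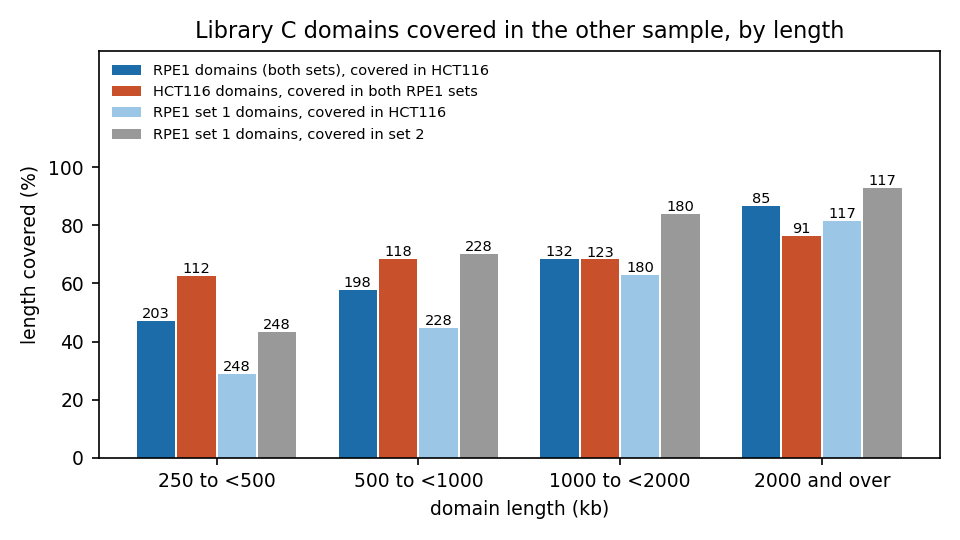
Percent of the summed length of C domains (y axis) that was C-rich in the other line or set, by domain length (x axis, kb), with the number of domains above each bar. The RPE1 bars go from 47.2 to 86.7% and the HCT116 bars from 62.4 to 76.3%. The domains of RPE1 set 1 go from 28.8 to 81.6% in HCT116 (light blue) and from 43.3 to 92.7% in RPE1 set 2 (grey).

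Some whole domains had no C-rich window in the other line, with RPE1 counted as C-rich only where both of its sets were. In RPE1 this held for 120 of 618 domains, or 19.4%, and 74 of these were under 500 kb. Short domains were also lost between the RPE1 sets. Of 773 set 1 domains, 55 (7.12%) had no C-rich window in set 2, among them 52 of the 248 under 500 kb (21.0%). In HCT116 224 of the 773 (29.0%) had none. Of 620 set 2 domains, 0 had none in set 1 and 124 (20%) had none in HCT116. At least 1 Mb was reached by 5 of the 120. These 5 were on chromosome 4 from 11900001 to 13000000 and from 188000001 to 189000000, chromosome 5 from 128150001 to 129650000, chromosome 8 from 75300001 to 76350000 and chromosome 16 from 16850001 to 18100000. Their HCT116 shares ran from 26.1% in the first to 37.6% in the last, against 64.5 to 68.0% in RPE1 set 1 and 56.8 to 59.6% in RPE1 set 2. With both RPE1 sets required, an HCT116 domain could still hold windows C-rich in 1 RPE1 set. Of the 444 HCT116 domains, 84 overlapped no domain of both RPE1 sets, 83 none of set 2 and 46 none of set 1. In HCT116 58 of 444 domains, or 13.1%, had no window that was C-rich in both RPE1 sets, and 13 of these had at least 1 Mb. The longest of them was a stretch of chromosome 2 from 212800001 to 215350000, where HCT116 had 55.3% and RPE1 had 40.9 and 37.6%. The next was a stretch of chromosome 11 from 103500001 to 105700000, at 60.6% against 40.1 and 36.4%. Averaged over each of these 2 stretches RPE1 was intermediate, above an even share, but its windows ranged widely. In RPE1 set 1 they ran from 7.57 to 61.6% on chromosome 2 and from 5.76 to 57.5% on chromosome 11. In RPE1 set 2 they ran from 14.7 to 49.7% and from 14.4 to 46.7%. A domain of 1.25 Mb on chromosome 6, from 71950001 to 73200000, stood farther apart, with 61.0% in HCT116 and 14.8 and 21.7% in RPE1. These long domains were picked out after their values were seen.

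Where a domain was present in both lines, its ends often differed. RPE1 and HCT116 had 251 C domains that overlapped each other and no further domain of the other line. Of their 502 ends 13.3% lay at the same window, and the median distance was 200 kb, with 42.4% of ends at least 250 kb apart. The RPE1 sets had 474 such pairs, with a median distance of 50 kb and 8.02% of 948 ends at least 250 kb apart. RPE1 set 2 alone against HCT116 gave 200 kb and 42.9%. In 749 of the 948 ends the domain of RPE1 set 1 reached farther than that of set 2, which goes with its larger number of C-rich windows. Between the lines RPE1 reached farther at 278 ends of these pairs and HCT116 at 157. Domains that overlapped 2 or more of the other line are left out of the pairs, so this direction holds for the pairs only. There were also 70 HCT116 domains that overlapped 2 or more RPE1 domains, and 23 RPE1 domains that overlapped 2 or more of HCT116, with 63 and 6 for RPE1 sets 1 and 2 in the place of HCT116 and RPE1.

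Chromosomes carried C-rich DNA unevenly, and the lines differed in where. On chromosome 18, 49.3, 41.9 and 42.6% of windows were C-rich in RPE1 set 1, RPE1 set 2 and HCT116, and on chromosome 13 it was 47.1, 34.4 and 46.5%. On chromosomes 17 and 22, which are dense in genes, it was 15.5, 13.0 and 8.61%, and 16.2, 14.6 and 7.74%. These chromosomes were picked from near the ends of the range, and their order is the one background knowledge gives for late DNA. The order of all autosomes was not compared with gene density, and it does not replace a label for the column. HCT116 lay below both RPE1 sets on 11 autosomes, above both on chromosome 21 and within them on 10. With the top 25% of windows of each set, which gives every set the same number, it lay below on the same 11 autosomes, above on 9 and within on 2. The widest gaps below RPE1 were on chromosomes 12 and 20. On chromosome 12, 21.3 and 21.1% of windows were in the top 25% in RPE1 and 12.3% in HCT116. At the 50% threshold 37.9% of the C-rich RPE1 windows of chromosome 12 were shared, the lowest part of any autosome, and it held 8 RPE1-only domains and 1 HCT116-only domain. Of its windows 5.90% were RPE1-only and 0.613% HCT116-only, against 3.2 and 2.01% of all kept windows. Chromosome 20 had 24.8% in both RPE1 sets and 15.9% in HCT116. Chromosome 13 lay the other way, with 34.8 and 32.0% against 46.1%, and 87.0% of its C-rich RPE1 windows were shared. It had 1 RPE1-only and 4 HCT116-only domains. Chromosomes 19, 20 and 22 had no HCT116-only domain, and chromosome 21 had no RPE1-only domain. These are small, with 1116, 1190, 698 and 703 of the 53706 kept windows, so few domains could lie there and a count of 0 shows little. HCT116-only windows were 0, 0.168 and 0% of chromosomes 19, 20 and 22, and RPE1-only windows were 0.996% of chromosome 21.

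**Figure D5:**
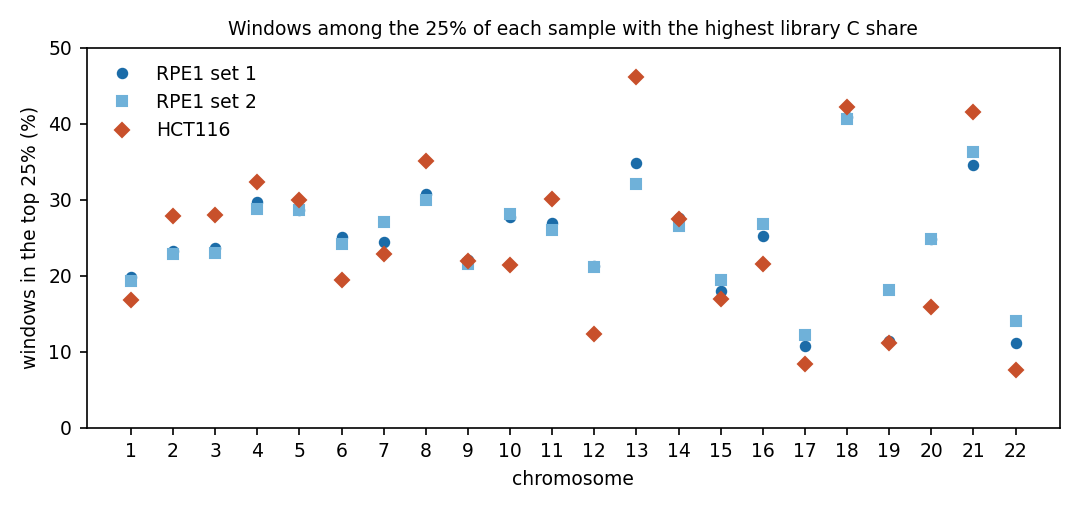
Percent of the windows of each autosome (y axis) that were in the top 25% of their own set by C share, for RPE1 set 1, RPE1 set 2 and HCT116. HCT116 lies farthest below RPE1 on chromosomes 12 and 20, at 12.3% against 21.3 and 21.1% on the former, and farthest above on chromosome 13, at 46.1% against 34.8 and 32.0%.

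A test over all windows asked whether C differed between the lines relative to the mean of A and B. With edgeR's quasi-likelihood test on the counts of all 9 libraries and Benjamini-Hochberg adjustment, 0 of 53706 windows passed an adjusted p of 0.05 with C higher in HCT116 (0%) and 0 with C lower (0%). At an unadjusted p under 0.05 there were 2634 (4.9%) and 4685 (8.72%). This fit rests on 2 residual degrees of freedom, treats columns at the same position as the same kind of library, and assumes that the single HCT116 set varies as RPE1 does. On counts simulated with the spread that edgeR fitted, this test recovered few or none of the changes put in at any fold size tried, so 0 calls do not show that windows did not differ. The limma fit missed most of them too and made some false calls. Other tools made calls on the data. With TMM factors edgeR called 964 windows higher (1.79%) and 308 lower (0.573%), and DESeq2 called 1707 (3.18%) and 3519 (6.55%). The limma fit used the log2 ratio of C to the sum of A and B, which needs no match of A and B between sets. It had 1 residual degree of freedom and called 2035 (3.79%) and 4848 (9.03%). TMM thus turned which direction had more calls. Domains found in 1 line were chosen on the same values, so these counts are no support for them, and the difference between the lines stands on 1 HCT116 set.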

How the data were processed

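Read counts per bin, whole numbers with no scaling, are the unit of the 3 deposited tables. Each has 3137207 bins, almost always 1 kb long, and 3 columns of counts. Bowtie2, SAMtools 1.2, bedtools 2.25 and hg19 are named in the submitters' processing notes, with no role or order. Table names in the labels point to duplicate removal, by an unstated method. Columns of other series numbered 0. Multi-mapped reads and a line's copy number can change the count of a window, and its share within a set less so.

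Here the bins of the 22 autosomes were summed to 50 kb windows. Windows were kept where 25 or more bins held a read, the 6 RPE1 columns held 50 reads and every set held 30. Libraries were scaled to their mean total over the kept windows. Domains were named by length, the 5 longest of each class, with ties taken by the larger difference in share. Tests used edgeR 4.0.16, limma 3.58.1 (pseudocount 1) and DESeq2 1.42.0 in R 4.3.3, and the edgeR and limma fits were tested on simulated data, where both recovered few changes at the fitted spread and most of the large ones at a low spread. Alternative thresholds, window sizes, filters, depths and tools are in the closing section. P-values measure only the spread between the RPE1 sets, which may be technical. The members, thresholds and lists were chosen with earlier results of these data known. Chromosomes X and Y and contigs were not used here.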

Additional observations from a re-analysis of the deposited data

How the results depend on the processing

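Of 160 alternative values 123 stayed within 1.5 times of the reported count or, for share differences of named domains, within the SD of the RPE1 sets, and 37 moved. The 123 include percents of C-rich windows under the top 25% setting, which that setting fixes. Window test counts, reported as 0, could stay only at 0. The tally is thus no measure of stability. A further 30, the share differences of the 15 named domains without an RPE1 set, cannot leave that SD by construction and are no sign of stability. Of these the differences of all 5 named shared domains changed sign without RPE1 set 1, from -2.58, -0.973, -3.62, -2.64 and -2.04 points to 0.516, 4.05, 0.145, 1.13 and 1.36, and those of the 10 domains found in 1 line kept theirs without either set. At a threshold of 40% the shared domains covered 666.4 Mb, RPE1-only domains numbered 311 (128.35 Mb) and HCT116-only domains 148 (70.0 Mb). At 60% the C-rich windows were 12.2% in RPE1 set 2 and 13.1% in HCT116, RPE1 set 2 had 412 domains, and there were 220 shared (94.75 Mb), 13 RPE1-only (4.65 Mb) and 27 HCT116-only domains (9.5 Mb), so which line had more domains of its own turned with the threshold. With the top 25% of windows of each set there were 80 RPE1-only (30.9 Mb) and 78 HCT116-only domains (32.65 Mb), so the excess of RPE1 in summed length turned. The other line was still held to the fixed even share in that setting. With 20 kb windows there were 58 RPE1-only (23.1 Mb) and 44 HCT116-only domains (17.5 Mb). A least length of 500 kb left 279 shared, 24 RPE1-only (16.75 Mb) and 24 HCT116-only domains (16.5 Mb). Asking only that the other line be below 50% gave 327 RPE1-only (145.15 Mb) and 169 HCT116-only domains (88.65 Mb). Without each RPE1 set in turn, RPE1-only domains ran from 119 to 247 (48 to 96.5 Mb), shared domains from 429 to 463 (443.85 to 517.45 Mb) and HCT116-only domains from 84 to 95 (37.8 to 40.4 Mb). The window test gave 0 calls with no filter and with 100 kb windows, 964 higher and 308 lower with TMM factors, 1707 and 3519 with DESeq2, and 2035 and 4848 with limma. Windows with a log2 difference above 0 were 55.5%, and 36.5 to 55.2% without each RPE1 set, so without set 1 they were the minority. More calls in looser and fewer in stricter settings follow from the construction of the thresholds, and the other causes were not tested. Thinning every library to 5787062 autosomal reads left 424 shared, 104 RPE1-only and 73 HCT116-only domains. No paired analysis was possible because the lines share fewer than 2 replicate numbers in the labels and the columns carry none.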
